A study of Mus musculus with 8 samples.

Results

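The miR-30 family was followed through small RNA libraries of mouse splenic CD8+ T cells, as its 5p strands and as the 3p arms of the Mir30a and Mir30c-2 hairpins. Its 7 members were taken by name from the deposited count table: mmu-miR-30a-5p, mmu-miR-30b-5p, mmu-miR-30c-5p, mmu-miR-30d-5p and mmu-miR-30e-5p, and mmu-miR-30a-3p and mmu-miR-30c-2-3p (the prefix for mouse is left out below). They are 7 of the 1978 mature miRNA names in the table and filled 8 of its 2128 rows, since miR-30c-5p stands in 2. The remaining 3p arms of the family, miR-30b-3p, miR-30c-1-3p, miR-30d-3p and miR-30e-3p, served as the list to set beside them. All 7 members and all 4 of the other arms passed the filter on low counts, which kept 382 miRNAs.

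The 8 libraries form 4 groups of 2: mCre MP, WT MP, mCre TN and WT TN. Genotype is given as mCre or WT (Cre- in the design text); the sources used here give neither the allele that Cre acts on, nor its driver or the strain, nor the age of each animal, as the protocol covers adult and neonatal spleens together. The subsets were sorted on CD44 and CD122 from bead-enriched CD8+ cells. The labels do not spell out TN or MP, and the design text writes VM where the sample titles write MP. Whether both libraries of a group are from different mice is not stated, so each p-value rests on library-to-library spread, which may be technical.

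Most hairpins release a guide strand, which is loaded into Argonaute and pairs with target mRNAs through its seed (bases 2 to 8), and a passenger strand that is usually degraded. In the miR-30 family the 5p strand is commonly taken as the guide, though both arms of some of its hairpins accumulate, and all 5p members share their seed; the 3p arms carry other seeds and so would pair with other targets. In lymphocytes miR-30 is best known for repressing Prdm1, the gene of the transcription factor Blimp-1, as described for human B cell lymphomas and plasma cell differentiation.

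RefSeq (GRCm38.p6) held sequences for 5 of the 7 members and 2 of the 4 other arms. They are printed 5′ to 3′ with the seed in capitals, to show which arms share a seed and how few bases separate some of them. The 5p strands come first, then the 3p arms.
miR-30a-5p: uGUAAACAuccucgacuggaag
miR-30c-5p: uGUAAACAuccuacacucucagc
miR-30e-5p: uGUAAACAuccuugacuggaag
miR-30a-3p: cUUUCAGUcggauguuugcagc
miR-30e-3p: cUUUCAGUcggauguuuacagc
miR-30c-2-3p: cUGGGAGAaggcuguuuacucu
miR-30c-1-3p: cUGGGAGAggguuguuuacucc

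The seed GUAAACA is common to the 3 printed 5p strands, UUUCAGU to miR-30a-3p and miR-30e-3p, and UGGGAGA to miR-30c-2-3p and miR-30c-1-3p. Counting from 1 at the 5′ end, miR-30e-5p differs from miR-30a-5p by C13U alone, and miR-30e-3p from miR-30a-3p by G18A alone. miR-30c-1-3p differs from miR-30c-2-3p by A9G, C12U and U22C. Reads that end before such a base cannot be told apart, and values of miR-30a and miR-30e arms are uncertain to that extent. miR-30a-3p held parts of reads (more than 0.011 from a whole number) in 2 of 8 libraries and miR-30e-3p in 5. miR-30a-5p and miR-30e-5p held them in 4 each. Arms outside these pairs held them too, with 5 for miR-30b-5p and for miR-30d-3p, but 0 for miR-30b-3p. The counts therefore do not measure how many reads were exchanged between miR-30a and miR-30e arms.

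Both 3p members come from neighbouring hairpins on the plus strand of chromosome 1, 19361 bases apart. Mir30a lies at 23272269 to 23272339, inside no other annotated gene, and Mir30c-2 at 23291701 to 23291784, in an exon of the noncoding gene Gm27028. Their precursors are printed here with both mature arms in capitals.
Mir30a: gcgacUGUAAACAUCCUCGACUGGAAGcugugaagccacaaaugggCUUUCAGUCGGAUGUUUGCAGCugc
Mir30c-2: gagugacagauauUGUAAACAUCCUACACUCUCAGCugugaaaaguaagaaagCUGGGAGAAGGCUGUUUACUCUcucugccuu

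Mir30e and Mir30c-1 form a second pair, 2983 bases apart on the minus strand of chromosome 4 (120772606 to 120772697 and 120769534 to 120769622), both in an intron of Nfyc; Mir30f is annotated opposite Mir30e. miR-30c-5p is the same molecule from Mir30c-1 and Mir30c-2: its 2 rows held identical values, so counts cannot be assigned to either hairpin. The rows were summed, as reads divided between them; if each were instead a full copy, every level of miR-30c-5p printed here would be about 2 times too high. In the table as a whole, values of 1 or more were whole numbers (within 0.011) in 84.1% of cases for names with 1 row, 32.3% for names with 2 rows and 12.2% for names with 3 rows.

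Library totals ran from 1936597 to 5230976 counts, and values below are CPM (counts scaled to a common library size, after TMM scaling) unless given as a share. The miR-29 family, named in the series title, serves as a check on the genotype labels. The check assumes less miR-29 in mCre than in WT, as the allele that Cre acts on is not given. It took 0.0787% and 0.133% of the counts in mCre MP and 0.369% and 1.14% in WT MP. In TN, replicate 1 had 0.170% in mCre and 0.355% in WT, but the library labelled mCre TN replicate 2 had 1.59% and the library labelled WT TN replicate 2 had 0.0774% (all 95% Wilson intervals within 0.014 points, counting error only). Under that assumption both TN replicate 2 libraries ran against their labels, and every genotype direction in TN draws on them as labelled. Results were also computed without both. Among marker lists for other cell types, summed levels overlapped between subsets: endothelial and stromal miRNAs (all 6 counted) held 38.7 to 99.4 CPM in MP and 24.2 to 53.5 in TN, epithelial miRNAs (7 of 7) 2250 to 3800 and 1310 to 3180, erythroid (4 of 4) 72.7 to 157 and 37.9 to 101, and myeloid (2 of 2) 1.59 to 12.2 and 5.62 to 10.4. The lymphocyte list (7 of 7) held 61800 to 133000 CPM in MP and 54400 to 186000 in TN. miR-144-3p (erythroid) was at 0 in all MP libraries, miR-145a-5p in all TN libraries and miR-214-3p in all MP libraries (both stromal). Taken one by one, the epithelial miR-200a-3p separated the subsets in the direction of the 3p members, with 595.3 to 712.1 CPM in MP and 161.5 to 446.1 in TN; of the lymphocyte list, miR-146a-5p was higher in MP without overlap and miR-181a-5p lower, and the other 23 markers overlapped. The part of other cells in the results on miR-30 was not tested.

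The 5p counts were carried mostly by miR-30d-5p and miR-30c-5p. By mean share of counts they ranked 14 and 17 among all names, and together they made up 80.8% to 96.0% of the 5p counts of each library. With miR-30c-5p counted as 1 row, its rank would be 26 and the joint share 77.2% to 95.5%. miR-30d-5p held 13830 and 12390 CPM in mCre MP, 17750 and 16550 in WT MP, 17430 and 8450 in mCre TN, and 15630 and 12180 in WT TN. It was the steadiest 5p member, with a 2.1-fold range over the 8 libraries. miR-30c-5p held 3102 and 6426 CPM in mCre MP, 14860 and 11490 in WT MP, 11750 and 3378 in mCre TN, and 10020 and 4375 in WT TN, a 4.79-fold range. In both TN groups the second value, from the library labelled replicate 2, is the lower one for these miRNAs.

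The scarcer 5p members spread further. Their ranges over the 8 libraries were 8.66-fold for miR-30a-5p, 6.32-fold for miR-30b-5p and 14.2-fold for miR-30e-5p. miR-30e-5p held 3586 CPM in WT TN replicate 1 and 267.6 in the library labelled WT TN replicate 2, the highest and the second lowest of the 8. The lowest, 252.6 CPM, was in mCre MP replicate 1.

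The 3p arms outside the chromosome 1 pair were steadier than their own 5p partners, with the exception of miR-30d-3p. miR-30e-3p held 2875 and 2893 CPM in mCre MP, 2788 and 3020 in WT MP, 2823 and 2942 in mCre TN, and 2347 and 3019 in WT TN. Its range was 1.29-fold, against 14.2-fold for miR-30e-5p of the same hairpin. miR-30b-3p spanned 118.9 to 265.9 CPM (2.24-fold), against 113.3 to 716.8 for miR-30b-5p. miR-30c-1-3p spanned 41.5 to 120.8 CPM (2.91-fold, against 4.79-fold for miR-30c-5p). miR-30d-3p had a 2.98-fold range from 10.1 to 30.2 CPM, wider than the 2.1-fold range of miR-30d-5p and at the lowest counts of the family.

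**Figure D1:**
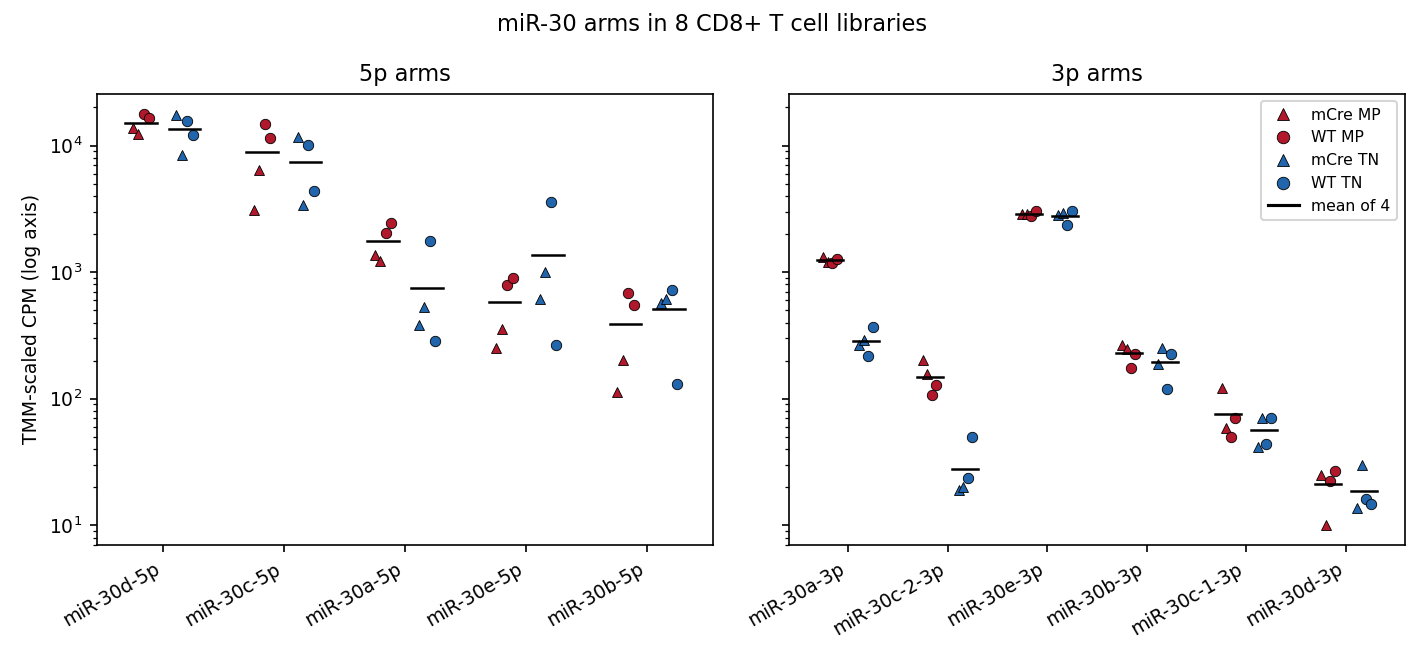
TMM-scaled CPM (log axis) of the 5 5p arms and 6 3p arms in each library, MP (red) left of TN (blue), triangles mCre and circles WT, bars the mean of 4 libraries. miR-30a-3p and miR-30c-2-3p are the arms whose MP libraries all lie above all TN libraries; miR-30e-3p stays between 2347 and 3020 CPM in all 8 libraries.

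Summed, the 5p members took 1.65% and 1.73% of the counts in mCre MP, 4.06% and 2.99% in WT MP, 3.54% and 1.38% in mCre TN, and 3.92% and 1.58% in WT TN. The intervals from counting were within 0.022 points, so these differences between libraries exceed counting error. MP libraries averaged 2.61% ± 1.15 and TN libraries 2.60% ± 1.31 (SD, n = 4 each), and the groups overlapped. With miR-30c-5p as 1 row the means were 2.17% in MP and 2.20% in TN. The 6 3p arms together took 0.384% to 0.487% in MP and 0.342% to 0.385% in TN. They thus spanned 1.42-fold over the 8 libraries, against 2.94-fold for the 5p sum.

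**Figure D2:**
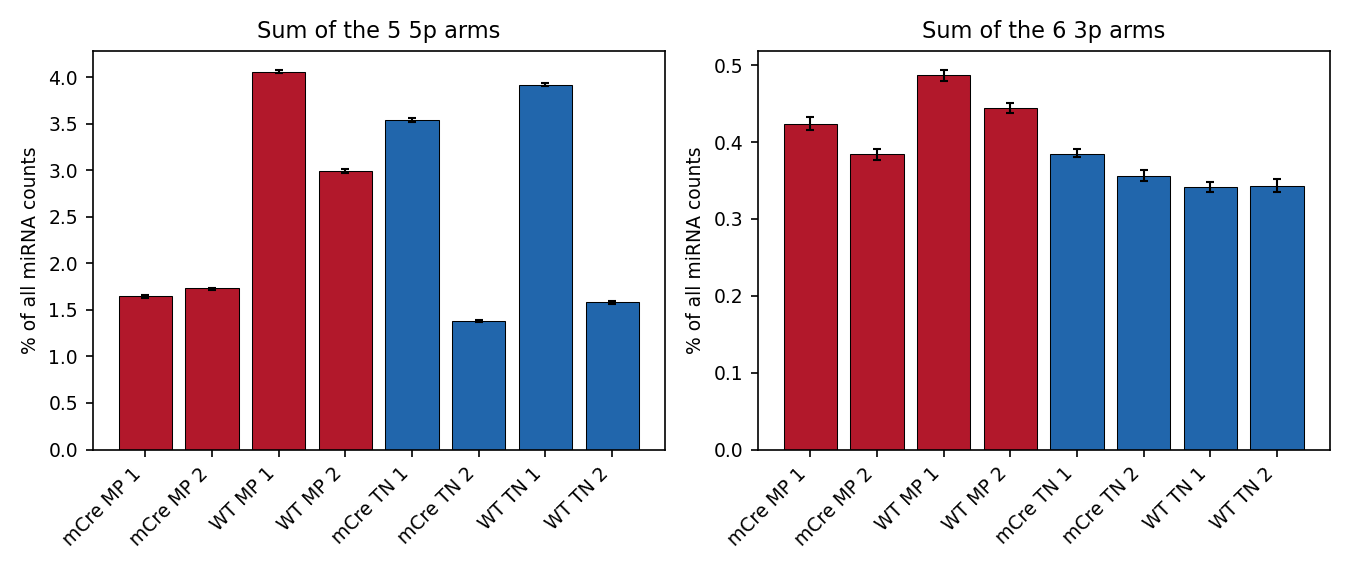
Percent of all miRNA counts (bars from 0, with 95% Wilson intervals, which cover counting error only) taken by the summed 5p arms and by the summed 3p arms in each library, MP in red and TN in blue. The 5p sum runs from 1.38% to 4.06% and splits libraries of one TN group; the 3p sum stays between 0.342% and 0.487%.

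Over both genotypes, both 3p members rose in MP relative to TN, and no 5p member passed the test. miR-30a-3p, the partner strand of miR-30a-5p, held 1312 and 1213 CPM in mCre MP and 1190 and 1279 in WT MP, against 265.5 and 289.1 in mCre TN and 216.6 and 367.8 in WT TN. The 4 MP values lay within 1.1-fold of each other, and the lowest of them was above every TN value. MP libraries averaged 1248 ± 57.0 CPM and TN libraries 284.7 ± 63.1 CPM (SD, n = 4 each). The log2 fold change was 2.13 ± 0.37 (SE), or 4.39-fold, with an adjusted p of 0.0303 (edgeR quasi-likelihood, Benjamini-Hochberg). In bulk samples such as these, a different share of cells that carry a miRNA and a different amount per cell cannot be told apart.

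miR-30c-2-3p, the partner strand made by Mir30c-2 alone, held 203.4 and 157.4 CPM in mCre MP and 106.5 and 127.8 in WT MP, against 18.9 and 20.1 in mCre TN and 23.6 and 49.6 in WT TN. All MP libraries lay above all TN libraries, and the highest TN value came from the library labelled WT TN replicate 2. MP libraries averaged 148.8 ± 42.0 CPM and TN libraries 28.0 ± 14.5 CPM (SD, n = 4 each). The log2 fold change was 2.44 ± 0.48 (SE), or 5.44-fold (edgeR adjusted p = 0.0392). Across the 382 miRNAs tested, edgeR called 2.36% (1.31% higher and 1.05% lower in MP), 13.1% had an unadjusted p under 0.05, and DESeq2 called 7.33%, both 3p members included. Without overlap, 6.81% lay higher in MP and 4.45% lower.

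The size of both changes held when libraries were left out, but the calls did not. Leaving out 1 library at a time gave log2 changes of 1.96 to 2.25 for miR-30a-3p and 2.08 to 2.77 for miR-30c-2-3p. Both missed the threshold when any one library other than the one labelled WT TN replicate 2 was left out (edgeR adjusted p up to 0.197 for each), and passed without that library (0.00886 and 0.00735). Without both TN replicate 2 libraries the edgeR adjusted p was 0.00252 and 0.00203. With RLE factors the log2 fold change of miR-30c-2-3p was 2.33 with an edgeR adjusted p of 0.0504. With the replicate number added to the fit both missed the threshold. The log2 fold change was then 2.15 for miR-30a-3p (edgeR adjusted p = 0.0565) and 2.47 for miR-30c-2-3p (edgeR adjusted p = 0.0733).

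The 5p partner of the same chromosome 1 hairpin pointed the same way with a wider spread. miR-30a-5p held 1376 and 1229 CPM in mCre MP and 2031 and 2454 in WT MP, against 385.7 and 526.2 in mCre TN and 1778 and 283.3 in WT TN. WT TN replicate 1 lay above both mCre MP libraries, while the other 3 TN libraries lay below every MP library. The log2 fold change was 1.32 ± 0.56 (SE, edgeR adjusted p = 0.362), and 2.00 without WT TN replicate 1 (edgeR adjusted p = 0.193). In WT alone it passed without that library (3.01, edgeR adjusted p = 0.0322, with 1.38% of all miRNAs called), where the sole WT TN library left is the one whose label is in doubt. It was 0.24 without that one instead (edgeR adjusted p = 0.848) and 0.21 without both TN replicate 2 libraries (edgeR adjusted p = 0.859).

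The remaining 5p members overlapped between the subsets (values are log2 fold changes of MP over TN). miR-30e-5p, from the chromosome 4 pair, had a log2 fold change of -1.30 ± 0.69 (edgeR adjusted p = 0.506), which became -0.46 without WT TN replicate 1. It passed without the library labelled WT TN replicate 2 (-1.74, edgeR adjusted p = 0.0217) and without both TN replicate 2 libraries (-1.71, edgeR adjusted p = 0.0126), settings in which 9.38% and 11.3% of all miRNAs were called. miR-30b-5p was at -0.68 ± 0.73, miR-30c-5p at 0.10 ± 0.58 and miR-30d-5p at 0.16 ± 0.34; with total count scaling the values for miR-30c-5p and miR-30d-5p turned to -0.15 and -0.06. The median over the 5 5p members was 0.10, with 3 above 0 and 0 called, beside a median of -0.04 over the 382 tested.

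None of the 4 other 3p arms was called either. miR-30e-3p, which shares its seed with miR-30a-3p, was at 0.06 ± 0.32 on the log2 scale, and its difference from miR-30a-3p was not itself tested. miR-30c-1-3p, which shares its seed and its 5p partner with miR-30c-2-3p, was at 0.38 ± 0.41 (edgeR adjusted p = 0.774). miR-30b-3p was at 0.22 ± 0.37 and miR-30d-3p at 0.18 ± 0.50. RLE factors shifted the median of all tested miRNAs by -0.11 and total count scaling by -0.19 in this comparison.

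Within single genotypes the 3p members had log2 fold changes of 1.68 to 3.21, and no miRNA of the 382 was called by edgeR in either (0%, with 8.12% at an unadjusted p under 0.05 in WT and 21.5% in mCre). In mCre, the log2 fold change of miR-30a-3p was at 2.19 ± 0.52 (edgeR adjusted p = 0.108) and miR-30c-2-3p at 3.21 ± 0.57 (edgeR adjusted p = 0.0829). In WT, miR-30a-3p was at 2.08 ± 0.52 (edgeR adjusted p = 0.181) and miR-30c-2-3p at 1.68 ± 0.54 (edgeR adjusted p = 0.433). DESeq2 called 11.5% in mCre, both 3p members among them (adjusted p = 0.00601 for miR-30a-3p and 0.000161 for miR-30c-2-3p), and 3.14% in WT, with miR-30a-3p (DESeq2 adjusted p = 0.0473). Without both TN replicate 2 libraries, edgeR called 6.93% of all miRNAs in mCre, with miR-30a-3p (2.09, edgeR adjusted p = 0.0352) and miR-30c-2-3p (3.08, edgeR adjusted p = 0.00849), and 3.23% in WT, with miR-30a-3p (2.39, edgeR adjusted p = 0.0218) but not miR-30c-2-3p (2.19, edgeR adjusted p = 0.0503). In mCre both also passed without WT TN replicate 1 (12.9% of all called) or when the library labelled WT TN replicate 2 was left out (9.38%). These settings also called 5p members (log2 fold changes in brackets). Without WT TN replicate 1, mCre had calls of miR-30a-5p (1.42), miR-30b-5p (-2.02) and miR-30e-5p (-1.52). Without the library labelled WT TN replicate 2, it had miR-30a-5p (1.47) and miR-30b-5p (-1.94). Without both TN replicate 2 libraries, miR-30b-5p (-1.98) was called in mCre and miR-30e-5p (-2.2) in WT. Both 3p members lay higher in MP without overlap in each genotype, where 29.6% of all miRNAs tested did so in mCre and 26.2% in WT. The same held for miR-30a-5p in each genotype, and for miR-30c-5p, miR-30d-5p and miR-30d-3p in WT.

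Of the 5p members, miR-30b-5p and miR-30c-5p had log2 fold changes of opposite sign in the genotypes, without a call over all 8 libraries. For miR-30b-5p the sign in WT rests on the library labelled WT TN replicate 2 (-0.29 without it, and -0.32 without both TN replicate 2 libraries). For miR-30c-5p the sign in mCre rests on mCre TN replicate 1 (0.42 without it). In mCre, miR-30b-5p was at -1.91 ± 0.79 and miR-30e-5p at -1.42 ± 1.01, and both MP libraries lay below both TN libraries for each (35.6% of all tested were lower without overlap). In WT, miR-30b-5p was at 0.55 ± 0.77 and miR-30e-5p at -1.18 ± 1.00, both with overlap (13.4% of all tested were lower without overlap). miR-30c-5p was at -0.67 ± 0.71 in mCre, with overlap, and at 0.87 ± 0.72 in WT, higher without overlap beside 26.2% of all tested. Tested directly, a difference of the subset effect between mCre and WT passed for no member (0% of the 382 miRNAs by edgeR, 14.1% at an unadjusted p under 0.05, and 4.19% by DESeq2, none of them a member). The largest differences were -2.45 ± 1.10 for miR-30b-5p (edgeR adjusted p = 0.350), -1.54 ± 1.01 for miR-30c-5p and 1.52 ± 0.74 for miR-30c-2-3p (edgeR adjusted p = 0.371). Without WT TN replicate 1, miR-30b-5p (-4.28, edgeR adjusted p = 0.0176) and miR-30e-5p (-3.21, edgeR adjusted p = 0.0241) passed, among 15.6% of all miRNAs.

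**Figure D3:**
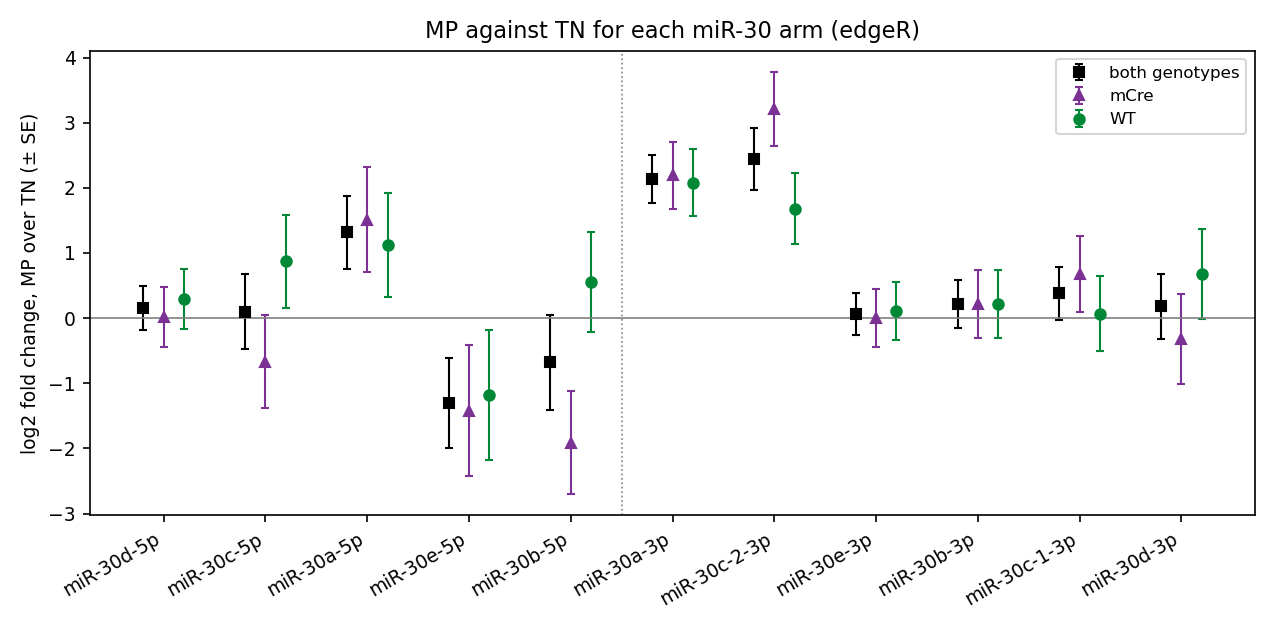
Log2 fold change of MP over TN with its SE for each miR-30 arm, over both genotypes (squares), in mCre (triangles) and in WT (circles), 5p arms left of the dotted line. miR-30a-3p and miR-30c-2-3p lie between 1.68 and 3.21 in all 3 fits, while miR-30e-3p stays within 0.11 of 0.

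Whether the 3p arms moved apart from their own 5p partners was asked within each library, where scaling cancels. The ratio of 3p to 5p counts was tested with limma over the 109 hairpins with both arms above the filter. None was called (0%, smallest limma adjusted p = 0.975; 2.75% had an unadjusted p under 0.05, and 1.83% had no overlap, no miR-30 hairpin among them), so the rise of the 3p members is not shown to differ from the change of the 5p strands. For Mir30a, the 3p arm made up 48.8% and 49.7% of the counts of both arms in mCre MP and 36.9% and 34.3% in WT MP, against 40.8% and 35.5% in mCre TN and 10.9% and 56.5% in WT TN. The WT TN libraries held both the lowest and the highest share of the 8. MP libraries had a mean log2 ratio of -0.45 ± 0.47 and TN libraries one of -1.02 ± 1.45 (SD, n = 4 each), a difference of 0.57 ± 0.84 (SE; exact two-sided permutation p = 0.629, the smallest possible being 0.0286). It was -0.10 without WT TN replicate 1, 1.27 without the library labelled WT TN replicate 2 and 1.34 without both TN replicate 2 libraries, none of them called by limma.

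For Mir30c-2, set against the miR-30c-5p that it shares with Mir30c-1, the 3p arm made up 6.15% and 2.39% in mCre MP and 0.711% and 1.10% in WT MP, against 0.161% and 0.592% in mCre TN and 0.235% and 1.12% in WT TN. The library labelled WT TN replicate 2 lay above both WT MP libraries, and otherwise MP lay above TN. MP libraries averaged a log2 ratio of -5.72 ± 1.40 and TN libraries one of -7.96 ± 1.28 (SD, n = 4 each), a difference of 2.24 ± 0.96 (SE; limma adjusted p = 0.975, unadjusted 0.0421; exact two-sided permutation p = 0.0857). With miR-30c-5p as 1 row the 3p shares were 11.6% and 4.67% in mCre MP, 1.41% and 2.18% in WT MP, 0.321% and 1.18% in mCre TN, and 0.468% and 2.22% in WT TN, and the difference between subsets was again 2.24. Mir30c-1, with the same 5p count below it, differed by 0.12 ± 0.95.

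In the other hairpins the ratio spanned a wide range with no subset difference past its error. miR-30e-3p was the more abundant arm of Mir30e in 7 of 8 libraries, at 74.5% to 91.9% of the counts of both arms, and fell short only in WT TN replicate 1, at 39.6%. For Mir30b the 3p share ran from 14.2% to 70.1%, and for Mir30d from 0.0781% to 0.356%. The log2 ratio differed between MP and TN by 0.86 ± 0.94 for Mir30e, 0.74 ± 0.98 for Mir30b and -0.05 ± 0.77 for Mir30d. The library labelled WT TN replicate 2 and both mCre MP libraries had the 3 highest ratios for Mir30a, Mir30b and Mir30e.

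**Figure D4:**
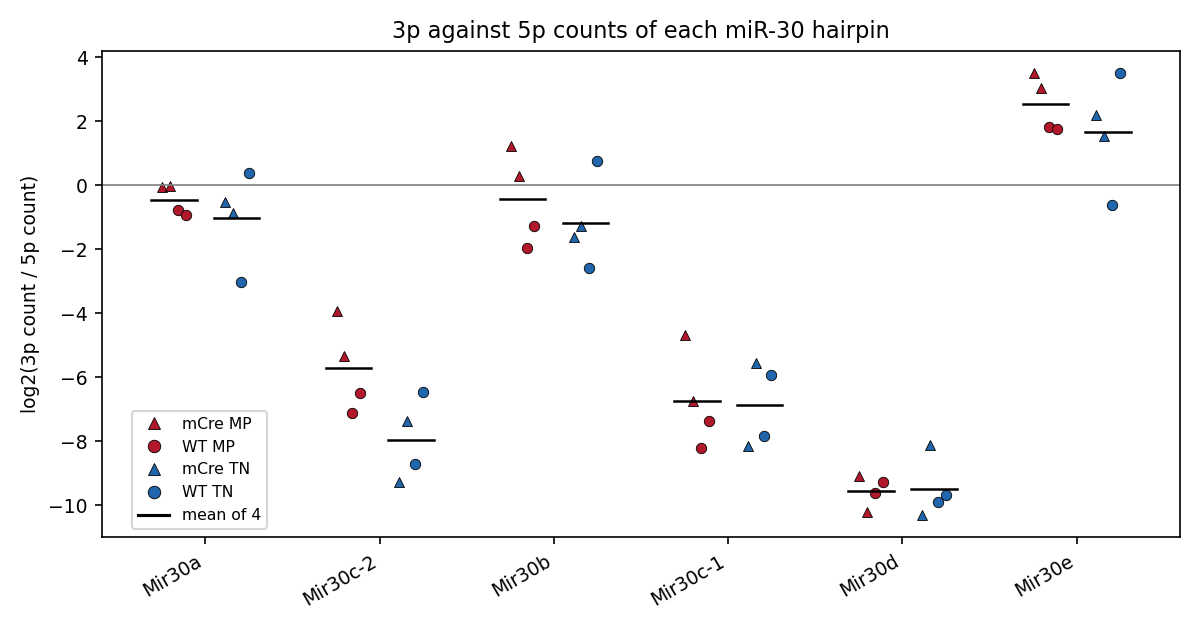
Log2 ratio of 3p to 5p counts of each miR-30 hairpin in each library, MP (red) left of TN (blue), triangles mCre and circles WT, bars the mean of 4. Mir30c-2 averages -5.72 in MP and -7.96 in TN with 1 TN library among the MP values, and Mir30a overlaps fully.

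The mCre genotype was then compared with WT within MP. All 5 5p members were lower in both mCre libraries than in both WT libraries, and none was called in the fit of all 8 libraries. miR-30b-5p held 113.3 and 201.4 CPM in mCre MP, against 687.6 and 551.9 in WT MP (log2 fold change -1.98 ± 0.79, edgeR adjusted p = 0.411). miR-30e-5p held 252.6 and 354.9 CPM in mCre MP, against 793.3 and 907 in WT MP (-1.48 ± 1.01). On the same scale, miR-30c-5p was at -1.47 ± 0.73, miR-30a-5p at -0.78 ± 0.79 and miR-30d-5p at -0.39 ± 0.46. Among all miRNAs tested, 37.4% lay lower in mCre MP without overlap, so separation of this kind was common. The median change was -1.47 over the 5 5p members and -0.23 over all tested. Whether these strands differ as a set from the rest was not tested. edgeR called 0% of the 382 (10.7% at an unadjusted p under 0.05), and DESeq2 0. The TN libraries enter this comparison only through the filter, the scaling and the spread. Without both TN replicate 2 libraries the log2 fold change was -2 for miR-30b-5p, -1.48 for miR-30c-5p and -1.51 for miR-30e-5p. Each TN group is then left with 1 library, so calls in that setting rest on the spread within MP.

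Neither 3p member was lower in this way. miR-30a-3p held 1312 and 1213 CPM in mCre MP, against 1190 and 1279 in WT MP, a log2 fold change of 0.03 ± 0.50 that turned to -0.22 with total count scaling. miR-30c-2-3p held 203.4 and 157.4 CPM in mCre MP, against 106.5 and 127.8 in WT MP (0.62 ± 0.52, edgeR adjusted p = 0.594), higher without overlap beside 27.2% of all miRNAs tested. miR-30e-3p was at -0.01 ± 0.45. Total count scaling shifted the median of all tested miRNAs by -0.25 here.

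In TN, with the caveat on the genotype labels of replicate 2, no member was called in mCre against WT by edgeR (0% of the 382, 3.14% at an unadjusted p under 0.05) or by DESeq2 (0 of 382). miR-30c-2-3p held 18.9 and 20.1 CPM in mCre TN, against 23.6 and 49.6 in WT TN (log2 fold change -0.90 ± 0.53, edgeR adjusted p = 0.957), lower without overlap beside 6.81% of all tested. The other 6 members overlapped (15.7% of all tested lay higher without overlap), with log2 fold changes from -1.25 ± 1.00 for miR-30e-5p to 0.48 ± 0.77 for miR-30b-5p.

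Likeness to other miRNAs was measured as Pearson's r of log2 CPM over the 8 libraries, which fall into 2 subsets, and is given as a description. Nearest to miR-30a-3p was miR-146a-5p (r = 0.971), a feedback inhibitor of NF-kB signalling, which averaged 14410 ± 2218 CPM over MP and 2406 ± 864.7 CPM over TN libraries (SD, n = 4 each). miR-598-3p (r = 0.963) and miR-200b-5p (r = 0.925) followed. Nearest to miR-30c-2-3p were miR-183-5p (r = 0.971) and miR-182-5p (r = 0.929), which come from one cluster, and miR-139-3p (r = 0.950). For miR-30d-5p the nearest were miR-24-1-5p (r = 0.885), let-7a-1-3p (r = 0.873) and let-7c-2-3p (r = 0.871), whose means nearly coincide. Between members, miR-30a-3p and miR-30c-2-3p had an r of 0.96, miR-30c-5p and miR-30d-5p 0.81, and miR-30b-5p and miR-30e-5p 0.84, whereas miR-30a-3p had an r of 0.61 with miR-30a-5p and miR-30e-5p one of -0.75 with miR-30e-3p.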

How the data were processed

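The authors deposited a table of expected counts, 1 row per mature miRNA and precursor, unscaled, which hold parts of reads, as the values show; whole counts had been assumed when the tests were planned. The build was mm10 per the submitters' processing notes. For aligner, counter and annotation: not given in the sources used here. Libraries were made with a ligation kit, per the labels' protocols, so levels of different miRNAs also carry capture differences. Rows of one name were summed and rounded. filterByExpr (minimum count 10, total 15) over the 4 groups left 382 miRNAs; TMM scaled the libraries. edgeR 4.0.16 in R 4.3.3 tested them by quasi-likelihood (robust), 1 fit of subset and genotype over all 8 libraries and 1 fit of the 4 groups, with Benjamini-Hochberg adjustment over all 382 at 0.05. SE is the fold change over the square root of F. Arm ratios, log2 with 0.5 added to each count, were tested with limma 3.58.1 over 109 hairpins paired by name. DESeq2 1.42.0, RLE and total count scaling, no filter, a replicate block and left-out libraries were alternatives. Only the edgeR fit over both genotypes and the limma arm-ratio test were run on simulated data, and the outcome is not given here. Replicates of every group differed beyond counting noise (chi-square over its degrees of freedom 281 to 1660). The members, lists, rule for named miRNAs (all members, the other arms, the 3 nearest by r) and tests were chosen with earlier results of these data known, so no result here is independent support for that choice. Sequences are from RefSeq and gene overlaps from GENCODE, both on GRCm38.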

Additional observations from a re-analysis of the deposited data

Results flagged for a closer look

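In 3 of the 34 sets of 4 libraries checked (each arm and each arm ratio in MP and in TN), 1 library stood further from the others than Dixon's 95% limit for 4 values allows; chance alone flags about 1 set in 20. miR-30a-5p was 1778 CPM in WT TN replicate 1, against 283.3 to 526.2 in the other 3 TN libraries. miR-30c-2-3p was 49.57 CPM in the library labelled WT TN replicate 2, against 18.94 to 23.56 in the other TN libraries. miR-30d-3p was 30.15 CPM in the library labelled mCre TN replicate 2, against 13.62 to 16.07 in the others.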

How the results depend on the processing

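Of 835 values under other settings, 686 were kept and 60 reversed. Fold changes and arm ratios counted as kept with the same direction and side of the threshold. Counts of calls did so when close in size, and mean 5p sums when within the SD of the main setting. Of 588 member fold changes 487 were kept and 58 reversed, 0 of them the 2 called 3p members over both genotypes. Counting miR-30c-5p as 1 of its 2 rows, chosen after seeing the data, kept all 56 values recomputed (fold changes, calls and mean 5p sums). Causes were not tested. With 2 libraries a group and a common dispersion of 0.356, calls rest on few libraries.

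Over both genotypes, the miRNAs called of all tested numbered 28 by DESeq2, 19 with no filter, and 49 without both TN replicate 2 libraries. RLE factors left 1 member called. The number tested also changed with the setting. The filter left 382 miRNAs over all 8 libraries and 433 without both TN replicate 2 libraries, and with no filter 877 were tested. The r of same-numbered deviations was -0.32 to 0.41 over the 6 group pairs. With the labels of both TN replicate 2 libraries in doubt, this cannot show whether replicate numbers pair the samples. With the replicate block 0 members and 2 miRNAs were called, with miR-30a-3p at 2.15 (edgeR adjusted p = 0.0565) and miR-30c-2-3p at 2.47 (edgeR adjusted p = 0.0733). miR-30c-5p reversed to -0.15 and miR-30d-5p to -0.06 with total count scaling, and to -0.65 and -0.28 without both TN replicate 2 libraries. Within WT, DESeq2 called 1 member and 12 miRNAs, no filter 6 miRNAs, and leaving out both TN replicate 2 libraries 2 members and 14 miRNAs, with miR-30b-5p at -0.32. Within mCre, the same settings called 2 members and 44 miRNAs (DESeq2), 1 and 24 (no filter), and 3 and 30 (without both libraries); miR-30d-5p was -0.33 with total count scaling, -0.15 with no filter and -0.57 without both libraries. For mCre against WT in TN, no filter gave 1 call; miR-30c-5p was -0.06 by DESeq2 and with RLE factors, and without both libraries miR-30b-5p was -0.34, miR-30d-5p 0.15 and miR-30a-3p 0.28. In MP, 3 members and 63 miRNAs were called without both libraries; miR-30a-3p was -0.22 with total count scaling, -0.10 with no filter and -0.02 without both. For the difference of the subset effects, DESeq2 called 16 miRNAs and no filter 10; miR-30e-5p was 1.04 without both libraries, and miR-30a-3p -0.19 with total count scaling, -0.06 with no filter and -0.30 without both.

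Leaving out 1 library at a time gave 0 to 3 members and 0 to 41 miRNAs called over both genotypes, 0 to 1 and 0 to 6 in WT, 0 to 5 and 0 to 56 in mCre, and 0 to 2 and 0 to 68 for the difference of the effects. WT TN replicate 1 left out gave the 5 in mCre and the 2 for the difference. Ranges that crossed 0 over both genotypes were -0.34 to 0.70 for miR-30c-5p and -0.15 to 0.42 for miR-30d-5p. In WT they were -0.29 to 2.26 for miR-30b-5p and -2.17 to 1.69 for miR-30e-5p, and in mCre -1.42 to 0.42 for miR-30c-5p and -0.56 to 0.57 for miR-30d-5p. For mCre against WT in TN they were -1.98 to 0.72 for miR-30a-5p, -0.29 to 2.20 for miR-30b-5p, -1.09 to 0.84 for miR-30c-5p, -0.72 to 0.25 for miR-30d-5p, -2.17 to 1.63 for miR-30e-5p and -0.38 to 0.35 for miR-30a-3p, and in MP -0.12 to 0.07 for miR-30a-3p. For the difference they were -1.59 to 1.23 for miR-30a-5p, -0.70 to 0.25 for miR-30d-5p, -3.21 to 0.73 for miR-30e-5p and -0.28 to 0.31 for miR-30a-3p. The Mir30a arm ratio ran from -0.10 to 1.27 by limma and from -0.11 to 1.03 as a difference of means. The Mir30c-2 arm ratio ran from 1.57 to 2.98 and from 1.64 to 2.74. Where 1 library of a group was left, it is assumed to vary like the other groups.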
